A study of Homo sapiens with 14 samples.

Results

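Knockdown of the long noncoding RNA LINC00152 was compared between 2 glioblastoma cell lines, and the results below are the difference of its effects, the change in A172 minus the change in U87-MG (U87 for short), probe by probe. All 14 of 14 arrays of the series entered the comparison, and 21163 of 50599 probes were tested, those whose signal stood well above background on 3 or more arrays of 1 group in A172 and also of 1 group in U87. A172 and U87 are established human glioblastoma lines. Cells of each line received by electroporation (1 pulse of 1300 V for 30 ms) either a negative control siRNA with no target or siLINC00152 #1, a duplex against exon 1 of LINC00152, and RNA was taken 40 h later according to the sample labels, whereas the methods of the study give a later time. There were 3 control and 3 knockdown arrays of A172 and 4 control and 4 knockdown arrays of U87, numbered in pairs, which the methods call independent biological replicates. A single siRNA was arrayed, so an effect of its sequence on other transcripts and an effect through LINC00152 cannot be told apart. The question was which genes respond to the knockdown in 1 line and not in the other, or respond in opposite directions.

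LINC00152, also named CYTOR, is a long noncoding RNA that is raised in many tumours, and MIR4435-2HG is its near-identical copy elsewhere on the same chromosome. Cell lines from the same tumour type carry different mutations and express different receptors and transcription factors, so that the same agent can move a gene in one line and leave it, or move it the other way, in another. The difference of the effects tests this directly, since a gene called in one line and missed in the other need not differ between them. The siRNA is shown because every effect below is an effect of this duplex. Its strand given by the study, with no part marked in capitals, is:
siLINC00152 #1: tgcctgtcttcagatcttcacagca

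Levels are log2 signals with the array's 75th percentile subtracted, a level of 0 being the signal of the probe at that percentile. The share of spots well above background was 57.3 to 69.0% on the A172 arrays and 35.7 to 48.3% on the U87 arrays, and the number of arrays limits the precision. The U87 arrays with replicate number 3 stood apart: the control had 35.7% and the knockdown 40.4% of spots well above background, the lowest of their groups, and many probes were lower on both arrays than on the other 6 U87 arrays. The pair stays in the fit, which compares each knockdown array with the control of its own number, and called differences given below with an SE are also given without it. For A172, 3 slides held 6 arrays, a slide for each pair, while a single slide held all 8 U87 arrays. Line and slide can therefore not be told apart in the levels. Each knockdown effect was measured within a slide, but the difference sets effects from unlike slides against each other. The 75th percentile signal was 131 to 284 on the A172 arrays and 33.0 to 69.0 on the U87 arrays. The dimmest level well above background was -4.32 to -3.27 on the A172 arrays and -2.35 to -1.12 on the U87 arrays. An influence of slide or signal strength on the size of an effect cannot be told apart from line.

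The target was lowered in both lines. The log2 signal of the LINC00152 probe A_24_P273143 was 2.63, 2.44 and 2.48 on the A172 controls and 0.23, -0.42 and -0.10 on the A172 knockdown arrays. In U87 it was 1.94, 1.83, 1.71 and 1.82 on the controls and -1.21, -0.88, -0.74 and -0.79 after knockdown. Control and knockdown arrays did not overlap in either line, so this probe bears out the treatment labels of all 14 arrays. The level fell 6.12-fold in A172 and 6.63-fold in U87, and the difference between the lines, 0.12 on the log2 scale (SE 0.20), was not past the threshold (adjusted p 0.855, from limma). With normexp background correction that difference was -0.71 and past the threshold, a larger fall in A172, and the cause of this change was not tested. A further 4 probes lie at the LINC00152 and MIR4435-2HG genes and may not tell their transcripts apart. Of these, A_21_P0012079 changed by -2.44 in A172 and -2.97 in U87, A_21_P0012078 by -1.53 and -2.08, and the probe of ENST00000409139 by -1.16 and -1.62. The last of them, A_33_P3269678, was not called in either line, at -0.31 in A172 and -0.31 in U87. No difference between the lines was past the threshold at these 4 probes, which ranged from 0.00 to 0.55.

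The cells were also checked against marker genes. Of 15 glial and glioma stem markers on the array, 9 were well above background in A172 and 6 in U87. VIM, NES, CD44, SOX9, NOTCH1 and CHI3L1 were present in both lines, and SOX2, OLIG2 and SLC1A3 in A172 alone by this rule. The defining astrocyte genes GFAP, S100B and AQP4 were not well above background in either line, nor were OLIG1, PROM1 and FABP7. Markers of blood cells (5 of 6 in each line), endothelium (4 of 5 in A172 and 3 of 5 in U87) and epithelium (4 and 3 of 8) were also detected in part. By the same rule HBB, TEK, EPCAM, CDH1, ESRP1 and GRHL2 were not detected in either line. None of the blood, endothelial and epithelial markers tested differed between the lines in the knockdown effect by limma, the smallest p belonging to CD68 (-0.31, adjusted p 0.594), CDH5 (0.27, 0.675) and KRT8 (0.51, 0.345), whose further probe A_33_P3372368 was not called either (0.95). At an unadjusted p below 0.05 there were 0 blood, 0 endothelial and 1 epithelial marker.

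A probe was called as different at an adjusted p below 0.2 with an absolute difference above 0.5 on the log2 scale, the thresholds of the study. By this rule 280 probes responded differently in the 2 lines (1.32% of those tested). The A172 effect was the lower one at 214 of them (1.01%) and the higher one at 66 (0.312%), so that 76.4% lay on the lower side. This split moves with the scaling: 165 lower and 24 higher with quantile normalization within each line, 161 and 28 with quantile normalization over all arrays, 200 and 32 with the median in place of the 75th percentile, and 154 and 30 in the deposited log2 values. Of the 280 probes 243 had a gene name and stood for 223 genes, 16 of which had several called probes. At all 280 the paired log2 ratios of knockdown over control did not overlap between the 3 A172 pairs and the 4 U87 pairs, as against 12.8% of all tested probes. The fitted absolute difference ranged from 0.59 to 3.01 with a median of 0.97, beside a median of 0.19 over all tested probes. The probes were selected on these same ratios, so neither comparison adds support to the calls. At 163 of the 280 the signal was well above background on all 14 arrays, and at 13 it was so on no array of some group. Without U87 replicate 3 the count was 587 (398 lower and 189 higher), with 276 of the 280 among them.

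**Figure D1:**
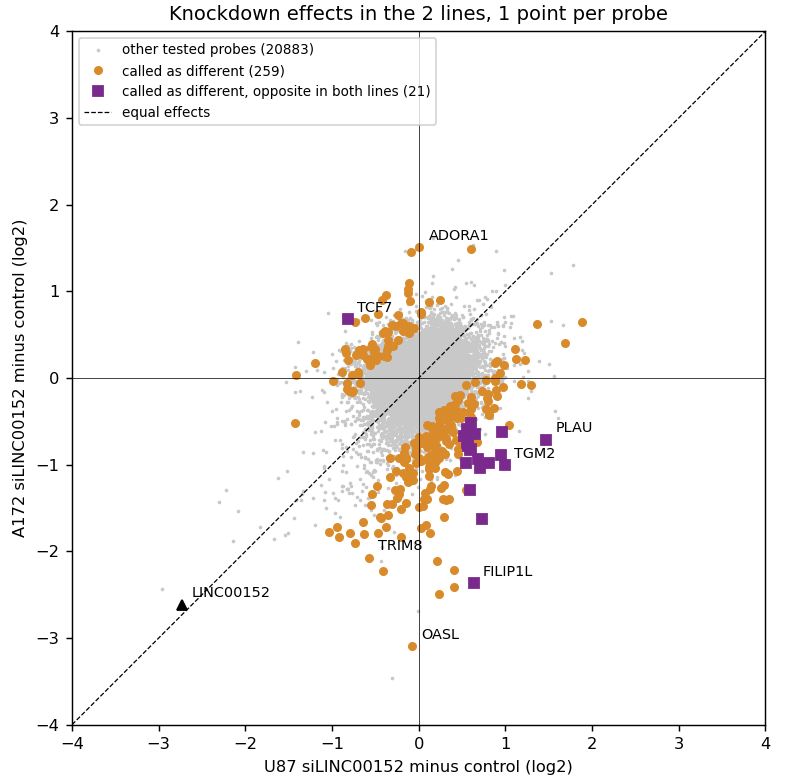
Knockdown effect of every tested probe, siLINC00152 minus control in log2 units, in U87 (horizontal) and A172 (vertical), with probes called as different in orange and those called in both lines in opposite directions in purple. LINC00152 itself (black triangle) lies near the line of equal effects at -2.73 in U87 and -2.61 in A172, and more called probes lie below that line (214) than above it (66).

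Most of the called differences were at probes called in 1 line only. Within A172 924 probes were called (4.37%), 605 of them lower (2.86%) and 319 higher (1.51%), and within U87 1165 were called (5.5%), 583 lower (2.75%) and 582 higher (2.75%). These counts depend on the fit: with the median in place of the 75th percentile 879 of 1274 called in U87 were higher, with normexp 490 were called in A172 and 132 in U87, without a filter 587 and 330, and without the pairing 33 and 9. In A172 the count was 502, 378 and 309 without its replicate 1, 2 and 3. Counting each named gene once, by its brightest probe, 616 of 11804 genes were called in A172 (5.22%), 681 in U87 (5.77%) and 191 for the difference (1.62%). Among the 280, 144 were called in A172 alone, 68 in U87 alone, 14 in both lines in the same direction with unequal size, 21 in both lines in opposite directions and 33 in neither line taken by itself. Here and below, alone means that the other line was not called, which need not mean that it did not change. The commonest class, 119 probes, fell in A172 alone, with a median change of -0.96 in A172 and 0.11 in U87. A further 25 rose in A172 alone (median 0.73 against -0.13). In U87 alone 39 rose (median 0.80 against -0.20 in A172) and 29 fell (median -0.72 against 0.20).

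All 21 probes called in both lines in opposite directions (0.0992% of those tested) were also called as different. They stand for 20 genes, and at 20 of the 21 probes the signal fell in A172 and rose in U87. At 201 probes (0.95%) both lines were called with equal signs. The opposite calls often depend on single pairs. With each of the 7 pairs left out in turn, GBP1, GPRC5A, ADAMTSL1 and both MYLK probes were called in opposite directions in all 7 fits, TGM2 and LAMB3 in 6, FILIP1L, S100A3, SLC20A1 and TCF7 in 5, and PLAU in 4. HEG1 and SLC39A14 were so called in 3, CAMK2N1, SOX15, GRK5 and S100A2 in 2, ENC1 in 1, and STAT3 and LAMA4 in none. Without U87 replicate 3, 11 of the 21 probes were still called in opposite directions. The U87 effect of the others was then 0.58 at FILIP1L, 0.37 at ENC1, 0.35 at STAT3, 0.30 at LAMA4, 0.40 at SOX15, 0.44 at GRK5, 0.49 at HEG1, 0.45 at SLC20A1, 0.42 at S100A2 and 0.48 at SLC39A14, and it was not called. With normexp background correction 4 of the 21 were called in opposite directions, both MYLK probes, HEG1 and SLC20A1. Over all 65 named probes called as different, normexp made the difference smaller at 64, by more than 1.5 times at 39, and 12 were no longer called. The 21 are grouped below by what the genes are known to do.

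**Figure D2:**
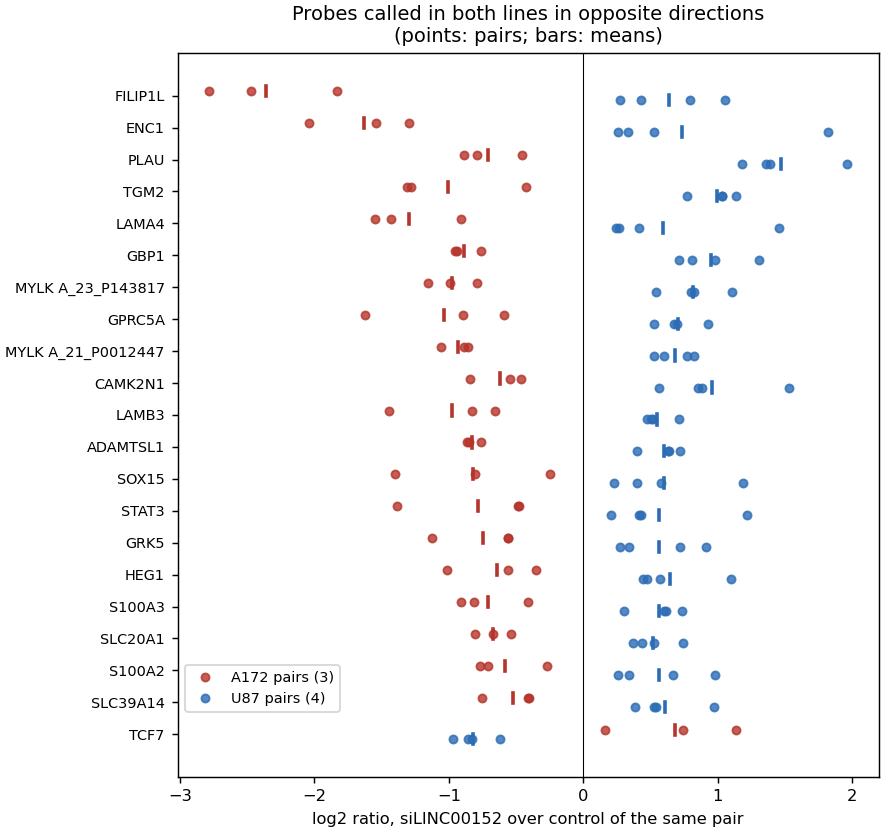
Log2 ratios of knockdown over control in each A172 pair (red, 3) and each U87 pair (blue, 4) for the 21 probes called in both lines in opposite directions, with bars for the means. No A172 pair lies on the same side of 0 as any U87 pair at any of the 21 probes, and TCF7 is the single gene that is higher in A172 and lower in U87.

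Genes of the extracellular matrix and its proteases included 4 called as different. There were 7 with normexp, and 3 with each quantile normalization and in the deposited values. Over all named genes 191 were called, with 295 with normexp. The quantile normalizations within lines and over all arrays and the deposited values gave 128, 125 and 121 over all named genes. Here and below, lists and their members were chosen with earlier results of these data known. The share of a list that was called is therefore a description and no independent support. PLAU encodes urokinase, the protease that activates plasminogen at the cell surface. Its log2 signal in A172 was -1.33, 0.01 and -1.00 in the controls and -2.13, -0.88 and -1.46 after knockdown. In U87 the controls read 2.54, 2.72, 1.67 and 2.69 and the knockdown arrays 3.93, 3.90, 3.63 and 4.05. Every A172 pair fell and every U87 pair rose, the knockdown and control values overlapping in A172 and not in U87. PLAU fell 1.64-fold in A172 and rose 2.77-fold in U87, a difference of -2.18 (SE 0.21, adjusted p 0.0118, -2.02 without U87 replicate 3 and -1.68 with normexp). The A172 fall of -0.71 on the log2 scale was no longer called together with the U87 rise when any of the 3 A172 pairs was left out, nor with normexp, where it was -0.37.

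LAMB3, a chain of the laminin that anchors epithelial cells to basement membrane, behaved likewise at lower signal. On the A172 arrays it read -2.25, -1.52 and -2.20 in the controls and -2.91, -2.97 and -3.03 after knockdown, and on the U87 arrays 0.25, 0.45, 0.33 and 0.39 and 0.96, 0.93, 0.85 and 0.89. Control and knockdown values did not overlap in either line, and the difference was -1.53 (SE 0.20, adjusted p 0.0388, -1.54 without U87 replicate 3 and -0.53 with normexp). LAMA4 encodes the laminin chain typical of vessel walls. Its brightest probe A_33_P3308749 fell in A172, from 0.47, 1.77 and 1.90 to -1.10, 0.20 and 0.86, and was not called in U87, from 1.66, 1.36, 1.62 and 1.68 to 1.69, 1.26, 2.07 and 1.69, a difference of -1.49 (SE 0.20, adjusted p 0.0408, -1.37 without U87 replicate 3 and -1.22 with normexp). At a further LAMA4 probe, A_33_P3308744, the line effects were -1.30 and 0.59 and both were called, though in none of the fits with a pair left out, and at A_33_P3391596, with -0.31 and 0.12, neither was, so the probes of this gene disagree about U87.

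MMP2, a gelatinase, was well above background on all 3 A172 controls and on no A172 knockdown array, where only a limit can be given. Such limits set the mean of the brighter group against the dimmest signal that counts as well above background on each array of the other group. By this limit MMP2 was at least 1.49-fold lower after knockdown in A172, with an effect of 0.08 in U87 that was not called and a fitted difference of -1.77 (SE 0.41, adjusted p 0.176, -1.48 without U87 replicate 3 and -0.083 with normexp). With normexp this difference was not called. MMP2 passed the filter in A172 only through its controls, so its call adds no support to the count of the list. Of the 47 genes in the matrix and protease list 30 were tested by their brightest probe. These 4 were called as different (13.3%), all with the lower effect in A172, beside 1.62% over the brightest probes of all 11804 named genes. THBS1, also listed, was not called at its brightest probe, but its dimmer probe A_33_P3415820 was called the other way, at 1.11 (1.00 with normexp). The median difference over the list was -0.28, with 22 of 30 genes below 0, beside 0.01 and 48.7% over all named genes. Outside the list, TGM2, the transglutaminase that crosslinks matrix proteins, had log2 signals of -3.87, -2.22 and -3.20 in A172 controls and -5.15, -3.53 and -3.62 after knockdown, where only 1 array was well above background. In U87 it went from 1.24, 1.20, 0.77 and 0.28 to 2.27, 2.23, 1.54 and 1.41. It fell in all 3 A172 pairs and rose in all 4 U87 pairs, by -2.00 (SE 0.23, adjusted p 0.0289, -2.07 without U87 replicate 3 and -0.92 with normexp). ADAMTSL1, a secreted matrix protein, had effects of -0.83 and 0.60 at probe A_33_P3302025 (1 of 3 A172 knockdown arrays well above background) and of 0.18 and 0.01 at the brighter A_23_P342138, where nothing was called.

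Actin and adhesion genes had a median difference below 0 in each scaling tried, as did several other lists, among them the matrix, interferon and autophagy lists. MYLK encodes myosin light chain kinase, which switches on contraction of actomyosin. At its brightest probe A_21_P0012447 the A172 controls read 1.51, 1.27 and 1.47 and the knockdown arrays 0.62, 0.21 and 0.61. The U87 controls read 1.03, 0.76, 2.30 and 1.74 and the knockdown arrays 1.63, 1.53, 3.13 and 2.26. In A172 the groups were apart, whereas the U87 groups overlapped and each pair rose by a similar step. The difference was -1.61 (SE 0.15, adjusted p 0.0114, -1.57 without U87 replicate 3 and -1.35 with normexp). A probe of the same gene, A_23_P143817, was called in opposite directions as well (-0.98 and 0.82), and the dimmer A_24_P319923 was called in A172 (-1.29) and not in U87 (0.54).

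FILIP1L, a protein related to the filamin binding protein FILIP1, had the widest difference of the 21 probes. Its A172 signal dropped from 2.21, 1.39 and 0.95 to -0.27, -1.39 and -0.88. In U87, where 2 of 4 controls and all 4 knockdown arrays were well above background, it went from -2.04, -1.67, -1.29 and -0.38 to -0.98, -1.39, -0.50 and 0.04. The A172 groups were far apart and the U87 groups overlapped, with every pair higher after knockdown. FILIP1L fell 5.14-fold in A172, and the difference was -3.00 (SE 0.27, adjusted p 0.0114, -2.95 without U87 replicate 3 and -1.93 with normexp).

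ABLIM3, which links LIM domains to actin, fell in A172 at probe A_24_P123408 from -0.62, -0.99 and -0.26 to -2.87, -3.36 and -3.12, with 2 of the 3 knockdown arrays well above background. The U87 values of 1.75, 1.83, 2.02 and 2.13 and 2.02, 2.26, 2.13 and 2.27 were not called, and the difference was -2.74 (SE 0.19, adjusted p 0.00178, -2.78 without U87 replicate 3 and -1.42 with normexp). Its brighter probe A_23_P256205 gave a difference of only -0.37 and was not called, so this gene counts as not called in the list. Of 36 listed actin and adhesion genes 27 were tested and 2, MYLK and FILIP1L, were called as different (7.41%). There were 5 without U87 replicate 3 and 9 with normexp. Over all named genes 191 were called (1.62%), with 371 without U87 replicate 3 and 295 with normexp. At an unadjusted p below 0.05 there were 15 of the 27, beside 1320 of all 11804 named genes. The median difference was -0.42 and 20 of 27 genes were below 0. ENC1, an actin-binding Kelch protein outside the list, went from 0.17, 1.12 and 1.44 to -1.37, -0.18 and -0.60 in A172 and from 1.66, 1.75, -1.32 and 2.26 to 1.99, 2.27, 0.49 and 2.52 in U87. The U87 pairs rose by 0.33, 0.52, 1.82 and 0.26, the widest step being replicate 3, without which the mean U87 effect was 0.37 and not called. Its opposite call was made in 1 of the 7 fits with a pair left out. The difference was -2.36 (SE 0.38, adjusted p 0.0646, -2.00 without U87 replicate 3 and -1.60 with normexp).

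**Figure D3:**
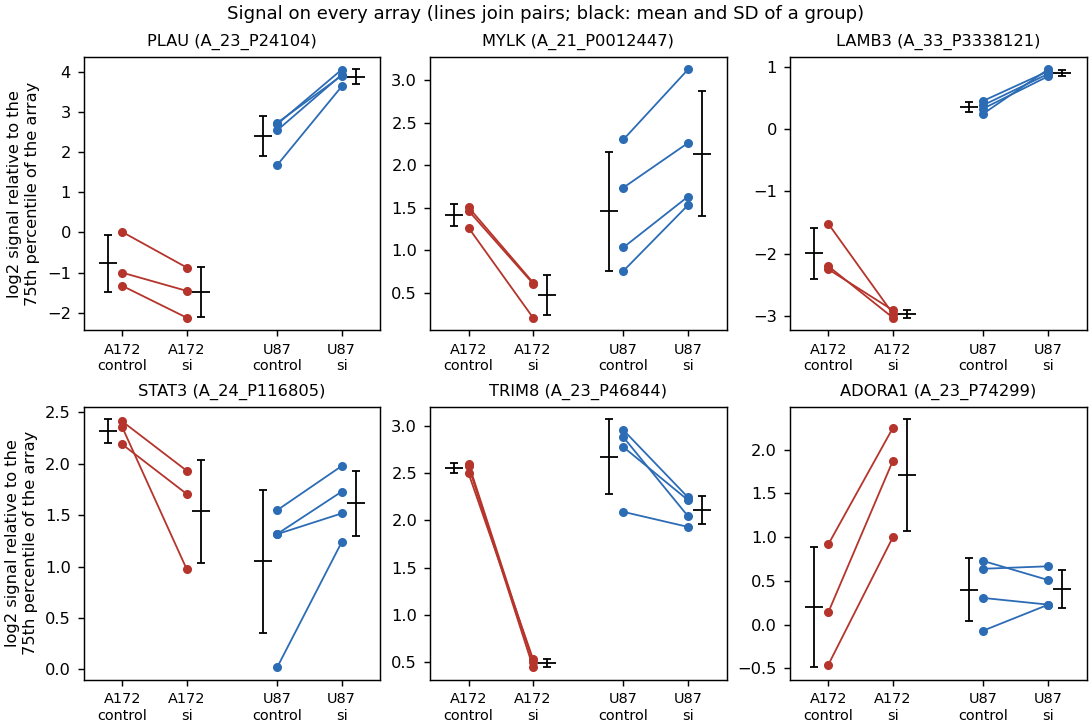
Log2 signal above or below the array's 75th percentile for PLAU, MYLK, LAMB3, STAT3, TRIM8 and ADORA1, with 1 point per array, lines joining control and knockdown (si) arrays of the same pair, and black bars for the mean and SD of each group (3 arrays in A172, 4 in U87). The lines of PLAU, MYLK, LAMB3 and STAT3 slope down in A172 and up in U87, TRIM8 slopes down more steeply in A172 (-2.07) than in U87 (-0.57), and ADORA1 rises in A172 (1.51) with 0.01 in U87.

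The IL6, JAK and STAT3 list had 5 genes called as different. Cytokines of the IL6 family bind receptors such as LIFR and OSMR, whose kinases of the JAK family activate the transcription factor STAT3. Of 21 listed genes 17 were tested and 5 were called (29.4%), all with the lower effect in A172, beside 1.62% over all named genes. The list was chosen with earlier results of these data known, so this share is a description and no independent support. The median difference was -0.51, with 10 of the 17 genes below 0, beside 0.01 and 48.7% over all named genes. The list median was -0.36 without U87 replicate 3 and -0.18 with normexp, where the actin and adhesion list stood lower, at -0.40 and -0.37. In the deposited values 3 of the 17 genes were called.

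The receptor gene LIFR rose in U87, from -1.88, -1.61, -3.08 and -0.23 in the controls to -1.07, -0.84, -1.16 and 0.45 after knockdown. In A172, with -0.22, -1.03 and -0.26 and -0.82, -1.54 and -0.77, all 3 pairs were lower and the change was not called. The U87 control of replicate 3 was not well above background, so the LIFR rise of 1.05 on the log2 scale in U87 is a fitted value. The fitted difference was -1.59 (SE 0.29, adjusted p 0.0983, -1.30 without U87 replicate 3 and -0.61 with normexp). OSMR, the receptor subunit for oncostatin M, was called in neither line (-0.47 in A172 and 0.34 in U87) and was called for its difference of -0.81 (SE 0.17, adjusted p 0.158, -0.78 without U87 replicate 3 and -0.64 with normexp).

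STAT3 itself was called in both lines at probe A_24_P116805. The A172 controls read 2.36, 2.41 and 2.19 and the knockdown arrays 0.97, 1.93 and 1.71, with no overlap. The U87 controls read 1.31, 1.32, 0.02 and 1.55 and the knockdown arrays 1.52, 1.73, 1.24 and 1.98, with overlap and with the widest step in replicate 3. STAT3 fell 1.72-fold in A172 and rose 1.48-fold in U87, a difference of -1.35 (SE 0.30, adjusted p 0.171, -1.13 without U87 replicate 3 and -1.07 with normexp). The opposite call of STAT3 was lost with any of the 7 pairs left out and with normexp, the U87 effect being 0.35 without U87 replicate 3 and 0.36 with normexp. The dimmer STAT3 probe A_23_P100795 had effects of -0.44 and 0.11 with the same signs, and neither they nor the difference of -0.54 were past the threshold.

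TRIM8, an E3 ubiquitin ligase known to act on inhibitors of STAT3, fell in both lines and further in A172. Its A172 signal was 2.58, 2.60 and 2.50 in the controls and 0.44, 0.50 and 0.53 after knockdown. The U87 signal was 2.88, 2.96, 2.09 and 2.78 and then 2.05, 2.24, 1.93 and 2.22. All A172 knockdown arrays lay far below every control, while in U87 the knockdown arrays reached the control of replicate 3. This was a fall of 4.2-fold against 1.48-fold, and the difference was -1.50 (SE 0.19, adjusted p 0.0336, -1.37 without U87 replicate 3 and -1.42 with normexp). BCL2L1, which encodes the survival protein BCL-xL, fell in A172 (-0.56) and was not called in U87 (0.25), with a difference of -0.81 (SE 0.16, adjusted p 0.123, -0.84 without U87 replicate 3 and -0.78 with normexp).

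Interferon-stimulated genes included OASL and IFIT3 as called members. Of 50 listed 31 were tested, 2 were called as different (6.45%), and the median difference was -0.12 with 22 of 31 below 0. Over all named genes 1.62% were called and 48.7% were below 0, with a median of 0.01. With quantile normalization over all arrays and in the deposited values 1 interferon-stimulated gene was called. With normexp 1 was called as well, which was neither OASL nor IFIT3. OASL, an antiviral relative of the oligoadenylate synthetases, was called as different, and with normexp it was not. It read -2.70, -1.78 and -2.97 on the A172 controls and -5.89, -4.96 and -5.86 on the A172 knockdown arrays, none of which was well above background. OASL thus passed the filter in A172 only through its controls, and its call adds no support to the count of the list. In U87, where it was brighter, it read 0.99, 1.07, 0.48 and 0.99 and 1.00, 0.85, 0.72 and 0.65, and the groups overlapped. OASL was at least 2.61-fold lower after knockdown in A172, and the fitted difference was -3.01 (SE 0.18, adjusted p 0.0013, -2.91 without U87 replicate 3 and -0.37 with normexp).

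IFIT3, an antiviral protein with tetratricopeptide repeats, was raised in U87 from -1.56, -1.74, -2.53 and -1.43 to -0.87, -1.18, -1.39 and -0.67. In A172 it read -0.68, -1.99 and -1.44 and -1.26, -1.86 and -1.69, pairs going both ways and groups overlapping. The difference was -1.02 (SE 0.21, adjusted p 0.141, -0.91 without U87 replicate 3 and -0.30 with normexp) and was not called with normexp. GBP1, an interferon-induced GTPase outside the tested list, was called in opposite directions. Its A172 controls read -3.12, -2.30 and -2.14 and its knockdown arrays -4.07, -3.24 and -2.91, of which 1 was well above background. Its U87 controls read -2.09, -1.61, -2.74 and -1.03 and its knockdown arrays -0.78, -0.90, -1.77 and -0.22, with 2 and 3 of 4 well above background. Every A172 pair fell and every U87 pair rose, and the fitted difference was -1.84 (SE 0.18, adjusted p 0.0118, -1.83 without U87 replicate 3 and -0.47 with normexp), not called with normexp. No fold is given, since too few arrays were well above background.

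The promoters of GBP1 and IFIT3 are shown because both genes rose in U87 and not in A172 and both are known targets of interferon regulatory factors. Both are RefSeq windows on GRCh38.p14, 250 bases before to 50 bases after the start of the gene, printed on the strand of the gene, with matches to the interferon regulatory factor core AANNGAAA on either strand in capitals. GBP1 lies at chr1:89065159-89065458 on the minus strand with 1 match, and IFIT3 at chr10:89327747-89328046 on the plus strand with 2 matches:
GBP1: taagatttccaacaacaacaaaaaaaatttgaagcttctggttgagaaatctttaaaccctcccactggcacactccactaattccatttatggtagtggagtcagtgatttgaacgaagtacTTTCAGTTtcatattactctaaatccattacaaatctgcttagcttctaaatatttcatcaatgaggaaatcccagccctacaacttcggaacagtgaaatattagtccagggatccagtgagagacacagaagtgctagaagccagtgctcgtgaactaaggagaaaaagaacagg
IFIT3: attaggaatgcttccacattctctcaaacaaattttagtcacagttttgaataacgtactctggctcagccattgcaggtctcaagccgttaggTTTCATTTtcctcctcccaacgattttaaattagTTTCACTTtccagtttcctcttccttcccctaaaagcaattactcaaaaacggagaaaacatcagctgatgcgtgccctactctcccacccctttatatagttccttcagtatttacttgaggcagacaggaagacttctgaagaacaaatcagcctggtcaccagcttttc
This core was present in 17.4% of the 13187 promoters of 9160 tested genes. A match is a description of the letters and no measure of binding. Promoters were found for 177 of the 223 called genes (79.4%), under the 80% that was required, so shares of motifs over the called genes are void and not given.

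The other genes called in opposite directions have varied roles. Those lower in A172 and higher in U87 were the calcium-binding proteins S100A3 (-0.71 and 0.56) and S100A2 (-0.58 and 0.56). CAMK2N1, an inhibitor of the calmodulin-dependent kinase CaMKII, had effects of -0.62 in A172 and 0.96 in U87. GRK5, a kinase that desensitizes G protein-coupled receptors, had -0.75 and 0.56, and the retinoic acid-induced receptor GPRC5A had -1.04 and 0.71. The phosphate transporter SLC20A1 changed by -0.67 and 0.52. The metal ion transporter SLC39A14 changed by -0.52 and 0.61 at probe A_23_P59950, and its probe A_24_P383356 was called in neither line (-0.69 and 0.10). HEG1, a membrane protein of vessel development, changed by -0.64 and 0.65, and the transcription factor SOX15 by -0.82 and 0.60. Among these 9 genes the adjusted p of the difference ranged from 0.0388 (SLC20A1) to 0.159 (SOX15). With normexp the differences of SOX15 (-0.35) and SLC39A14 (-0.36) were not called.

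TCF7, a transcription factor that partners beta-catenin, was the exception in direction. At probe A_33_P3250671 it read -1.94, -1.04 and -0.30 on the A172 controls and -1.77, 0.10 and 0.44 after knockdown. The U87 values were 0.15, -0.29, 1.20 and -0.21 and -0.70, -0.91, 0.23 and -1.05. All 3 A172 pairs were higher after knockdown and all 4 U87 pairs lower, although the groups overlapped within each line. TCF7 rose 1.6-fold in A172 and fell 1.77-fold in U87, a difference of 1.50 (SE 0.23, adjusted p 0.0583, 1.45 without U87 replicate 3 and 0.79 with normexp). At its other probe, A_23_P7582, the fall in U87 was called (-0.74), the A172 effect of 0.65 was not, with A172 pair 1 at -0.12, and the difference of 1.39 was called.

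Several of the widest differences came from genes called as lower in A172 alone. TMEM158, a membrane protein induced by Ras signalling, fell from -0.27, -0.78 and 0.42 to -2.48, -2.17 and -3.22 in A172. In U87 it read 3.58, 3.75, -0.24 and 3.85 and 3.65, 3.83, 1.27 and 3.81, where replicate 3 lay far below the others in both groups. The difference was -2.82 (SE 0.54, adjusted p 0.115, -2.45 without U87 replicate 3 and -1.46 with normexp). RAB3D, a small GTPase of secretory vesicles, was well above background on all A172 controls and no A172 knockdown array and was at least 2.37-fold lower, with 0.41 in U87 and a fitted difference of -2.63 (SE 0.35, adjusted p 0.0388, -2.36 without U87 replicate 3 and -0.50 with normexp). Its U87 pairs changed by 0.14, 0.12, 1.21 and 0.17, the widest step being replicate 3. ABCC3, an efflux pump for organic anions, fell 4.67-fold in A172, from 0.08, 0.51 and 0.31 to -3.01, -1.45 and -1.31, and was not called in U87 (-0.41).

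The difference of ABCC3 was -1.81 (SE 0.32, adjusted p 0.0908, -1.72 without U87 replicate 3 and -1.10 with normexp), and its probe A_33_P3298024 was called as well (-1.18). ZNF365, a zinc finger protein, had a difference of -1.92 (SE 0.31, adjusted p 0.0646, -1.73 without U87 replicate 3 and -0.61 with normexp) at probe A_24_P226970 and of -0.83 at the brighter A_33_P3242508, both called and both from a fall in A172. The pseudogene SVIL2P (-2.11 in A172 and 0.21 in U87) and GNB5, a G protein beta subunit (-1.61 and 0.30), are also among the 12 most negative fitted differences, being -2.25 and -1.53 without U87 replicate 3 and -0.70 and -0.87 with normexp. CD44, the hyaluronan receptor, was a glial list member called as different. Its brightest probe fell in A172 from 3.00, 1.76 and 1.47 to 1.72, 0.66 and 0.47 and read 2.79, 2.90, 1.27 and 3.05 and 2.91, 2.88, 1.54 and 3.15 in U87. Every A172 pair fell by 1.00 to 1.29, and the difference was -1.25 (SE 0.15, adjusted p 0.0289, -1.20 without U87 replicate 3 and -1.18 with normexp). A dimmer CD44 probe, A_21_P0000152, gave -0.44 and was not called. ITGA3, the alpha chain of a laminin-binding integrin, fell in A172 from 3.19, 2.58 and 2.64 to 2.44, 1.38 and 1.74 and was not called in U87 (0.17), with a difference of -1.11 (SE 0.16, adjusted p 0.0474, -1.10 without U87 replicate 3 and -1.03 with normexp).

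Genes called as higher in A172 alone were fewer. ADORA1, an adenosine receptor that lowers cyclic AMP, read -0.46, 0.92 and 0.14 on the A172 controls and 1.00, 2.25 and 1.87 after knockdown. In U87 it read 0.73, 0.64, -0.07 and 0.31 and 0.51, 0.67, 0.23 and 0.23. All 3 A172 pairs rose, above every control value in that line, and the U87 pairs went both ways. ADORA1 rose 2.84-fold in A172, and the difference was 1.50 (SE 0.18, adjusted p 0.0289, 1.59 without U87 replicate 3 and 1.26 with normexp). MIR17HG, the host transcript of the miR-17-92 cluster, was well above background on 1 of 3 A172 controls and 3 of 3 knockdown arrays, with effects of 1.45 in A172 and -0.08 in U87 and a difference that normexp lowered to 0.43, not called. AXIN2, a scaffold of the complex that degrades beta-catenin, rose from -2.59, -1.89 and -1.44 to -1.43, -0.77 and -0.43 in A172 and read -1.10, -1.87, -1.22 and -0.82 and -1.28, -2.04, -0.80 and -1.34 in U87.

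The difference of AXIN2 was 1.21 (SE 0.22, adjusted p 0.0919, 1.38 without U87 replicate 3 and 0.67 with normexp). CEP152, a centriole duplication protein (1.03 in A172 and -0.13 in U87), RNF41, a ubiquitin ligase (0.90 and -0.42), HSD17B2, an enzyme that inactivates sex steroids (0.95 and -0.37), and EDN1, the vasoconstrictor endothelin (0.73 and -0.47), rose in A172 and were not called in U87. With normexp the difference of RNF41 was 0.44 and not called. THBS1, the matrix glycoprotein thrombospondin, rose in A172 at both of its probes (0.99 and 0.57), and the difference was called at the dimmer A_33_P3415820 (1.11) and not at the brighter A_24_P142118 (0.48). FGFR1, a growth factor receptor of the tyrosine kinase list, rose in A172 (0.60) with -0.12 in U87, a difference of 0.71 (SE 0.15, adjusted p 0.153, 0.74 without U87 replicate 3 and 0.60 with normexp).

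Responses called in U87 alone ran both ways. TGFBR2, the type II receptor for TGF-beta, rose 1.84-fold in U87, from 0.96, 0.94, 0.93 and 1.56 to 1.83, 1.86, 1.78 and 2.44. In A172 it was brighter and overlapped between groups, at 3.60, 4.74 and 4.60 and 3.55, 4.93 and 5.01. The U87 groups did not overlap, every pair rising by 0.84 to 0.93, and the difference was -0.70 (SE 0.15, adjusted p 0.16, -0.72 without U87 replicate 3 and -0.46 with normexp), under the threshold with normexp. DDB2, a DNA damage sensor and p53 target, read 1.65, 1.66, 1.05 and 1.46 on the U87 controls and 2.23, 2.20, 1.90 and 2.10 after knockdown, with no overlap. Its A172 values of 2.11, 1.75 and 1.80 and 2.19, 1.78 and 1.54 overlapped, and the difference was -0.70 (SE 0.16, adjusted p 0.17, -0.63 without U87 replicate 3 and -0.53 with normexp). Another DDB2 probe, A_33_P3383955, rose in U87 (0.59) and missed the threshold for its difference (-0.62).

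SOX9, a transcription factor of glial progenitors, rose in U87 (0.81) and was not called in A172 (-0.43), with a difference of -1.24 (SE 0.29, adjusted p 0.188, -1.00 without U87 replicate 3 and -0.60 with normexp). Of the genes that fell in U87 alone, DUSP1, a phosphatase that turns off MAP kinases, read 0.31, 0.78, -3.34 and 0.35 on the controls and -0.45, -0.05, -3.82 and -0.47 after knockdown. Replicate 3 was far below the others in both groups, and every pair fell by 0.48 to 0.83. In A172, with -0.60, -1.94 and -1.08 and -0.39, -1.44 and -0.99, all 3 pairs were slightly higher, the change was not called, and the difference was 0.99 (SE 0.17, adjusted p 0.0759, 1.07 without U87 replicate 3 and 0.46 with normexp), under the threshold with normexp. The zinc finger repressor ZNF10 (-0.84) and the galectin LGALS14 (-0.69) also fell in U87 alone, with 2 and 1 of 4 knockdown arrays well above background. Their differences were 0.51 (called) and 0.18 (not called) with normexp. The ZNF10 difference was 0.99 without U87 replicate 3 and not called (adjusted p 0.207). ID2, an inhibitor of helix-loop-helix factors, differed at both probes, rising in A172 at A_23_P143143 (0.52 against -0.42) and falling in U87 at A_32_P69368 (-0.51 against 0.33), the latter difference being 0.31 and not called with normexp.

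The remaining lists are to be read against the 1.62% called over all named genes. They too were chosen with earlier results of these data known. The p53 targets had 3 of 25 tested genes called (12%, of 30 listed). These were DDB2, the death receptor TNFRSF10B, which fell in both lines and further in A172 (-1.80 against -0.63), and EDA2R, a receptor for ectodysplasin, which fell in A172 alone (-0.88). Their median difference was -0.06. The TGF-beta and BMP list had TGFBR2 and ID2 called among 19 tested of 33, with opposite signs, and a median of -0.18 with 15 of 19 genes below 0. With both quantile normalizations and in the deposited values limma called 0 of these genes and 3 had an unadjusted p below 0.05, while normexp and the median each gave 1 call. Of 9 keratins tested of 19, KRT80 fell in A172 (-0.80 against -0.16) and the pseudogene KRT42P rose there (0.63 against -0.20), and the median was 0.26, which was 0.06 with quantile normalization within each line and 0.17 without U87 replicate 3. The receptor tyrosine kinase and MAP kinase list had FGFR1 and DUSP1 called among 23 tested of 34 (median 0.08, and 0.03 with normexp), but 0 by limma with both quantile normalizations and in the deposited values, where 8 had an unadjusted p below 0.05, and 1 with the median. The NF-kB and cytokine list had TNFAIP2 called among 16 tested of 39 (-0.84 in A172 and 0.27 in U87, median -0.11, and -0.050 with normexp). Integrins and syndecans had ITGA3 called among 12 tested of 20 (median -0.15), and ABC transporters had ABCC3 called among 19 tested of 25 (median -0.06). Without U87 replicate 3, and also with normexp, the NF-kB, integrin and ABC transporter lists had 2 called genes each. Over all named genes the calls then rose from 191 to 371 and 295. In the glial list CD44 and SOX9 were called among 6 tested (median -0.34). The quantile normalizations, the median and the deposited values gave 1 call each in the glial and keratin lists.

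Autophagy and lysosome genes mostly had differences below 0, and 1 was called. Of 35 listed 30 were tested, 26 of these (86.7%) had a difference below 0, and the median was -0.19, with -0.09 in A172 and 0.15 in U87. NPC1, which exports cholesterol from lysosomes, was the 1 member called as different (-0.39 in A172 and 0.44 in U87, difference -0.83 (SE 0.18, adjusted p 0.167, -0.71 without U87 replicate 3 and -0.56 with normexp)). It was not called by limma with quantile normalization within each line, the median or the deposited values, where 0 members were called and 6, 8 and 7 had an unadjusted p below 0.05. In 7 lists no gene was called as different by limma. At an unadjusted p below 0.05 these lists held 3 genes each for DNA replication, G1 kinases, mitosis and ER stress. They held 5 for hypoxia, 7 for axon guidance and 0 for cholesterol, beside 1320 of all 11804 named genes. Without U87 replicate 3 there were 9 for DNA replication and 8 for hypoxia, beside 1513 named genes. With normexp there were 9 for hypoxia, 5 each for G1 and mitosis and 4 for cholesterol, beside 1726 named genes. Without U87 replicate 3, limma called 3 hypoxia genes and 1 gene each of G1, ER stress and axon guidance. With normexp it called 4 axon guidance genes, 3 hypoxia genes and 1 gene each of G1, mitosis and ER stress. Over all 11804 named genes it called 371 without U87 replicate 3 and 295 with normexp, beside 191 with neither change. DNA replication genes had a median of 0.19 (0.29 without U87 replicate 3, 0.10 with normexp), with 7 of 30 below 0 and CDT1, a licensing factor, closest at 0.45 (adjusted p 0.367). Cyclins and kinases of G1 had a median of 0.18 over 16 genes (0.31 without U87 replicate 3), while CDK6, the one with the smallest p, lay the other way at -1.54 (adjusted p 0.307). Mitotic and FOXM1 genes had -0.05 over 26, near 0 without U87 replicate 3 (CDC25B -0.54, adjusted p 0.27). Hypoxia and glycolysis genes had -0.05 over 26, and 0.03 without U87 replicate 3, with PGK1 falling in both lines (-1.75 and -1.06) and its difference of -0.69 not called. Cholesterol and lipid genes had -0.06 over 22, -0.021 without U87 replicate 3 and 0.00 with normexp (ACACA 0.77, adjusted p 0.518). ER stress genes had -0.14 over 27, -0.048 without U87 replicate 3 and -0.053 with normexp (VLDLR -0.56, adjusted p 0.26), and axon guidance genes -0.11 over 17, -0.039 without U87 replicate 3 and near 0 with normexp (SEMA3B -0.81, adjusted p 0.204).

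**Figure D4:**
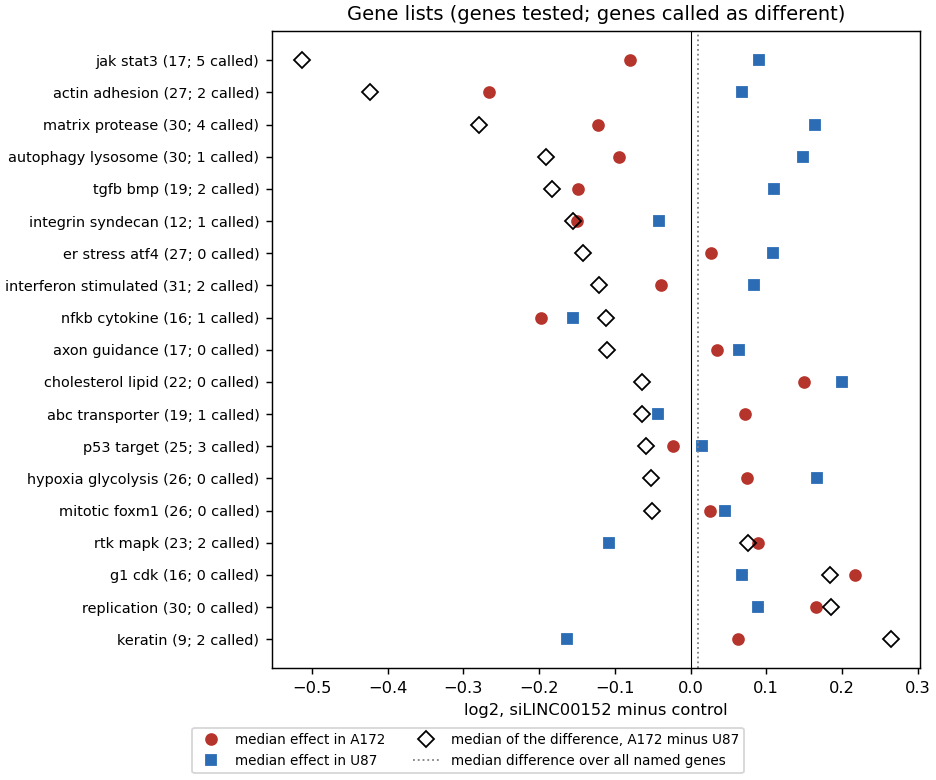
Median knockdown effect in A172 (red circles) and U87 (blue squares) and median of the difference between the lines (black diamonds), in log2 units, over the tested genes of each list by their brightest probe, with the numbers of genes tested and called beside each name. The JAK and STAT3 list (-0.51), the actin and adhesion list (-0.42) and the matrix and protease list (-0.28) lie furthest below the median over all named genes (dotted line, 0.01) among the 19 lists drawn, which do not include the glial markers (-0.34).

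All called probes named here kept the sign of their difference under each alternative setting and each left-out pair that tested them, 65 probes in all. How many pass the threshold depends on the fit: without the pairing of arrays by number 2 probes were called as different, with FDR below 0.05 in place of 0.2 there were 34, and leaving out A172 replicate 3 gave 35.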

How the data were processed

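Agilent SurePrint G3 arrays were scanned in 1 colour, and the deposited intensity of each spot was made by the authors with Feature Extraction 11.5.1.1, which removes background. The authors also deposited log2 values normalized between arrays with limma, which served as an alternative. Here log2 of the processed intensity was scaled to the 75th percentile of each array, without the spots that the scanner software marks as outliers, and replicate spots were averaged. Tested probes had a signal well above background on 3 or more arrays of 1 group in A172 and also in U87, and a call needed a false discovery rate below 0.2 and an absolute log2 change above 0.5. The 14 arrays were fitted in 1 model with limma 3.58.1 (lmFit, contrasts.fit, eBayes; R 4.3.3) with the pair as a block, with Benjamini-Hochberg adjustment over 21163 probes. Of 21166 probes passing the filter 3 could not be fitted, and 38 tested probes lacked a value on some array. Arrays were paired by their numbers. Deviations from the group mean correlated at 0.712 to 0.837 between same-numbered arrays of A172 and at 0.384 to 0.869 in U87. For other numbers the correlations were -0.776 to 0.415 in U87 and -0.722 to -0.108 in A172. U87 control 1 correlated at 0.384 with knockdown 1 and at 0.413 with knockdown 2, and control 2 at 0.415 with knockdown 1. The correlations therefore do not settle the pairing of U87 numbers 1 and 2, which rests on the labels. No 2 arrays were identical (highest correlation 0.991).

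Of 50599 probes 29033 were named by RefSeq accession (GRCh38.p14, 20992 genes), 5 by a table of the study, and 21561 stayed unnamed. Named probes are those of the LINC00152 locus, those called in opposite directions, the 12 most negative and 12 most positive called differences with non-overlapping ratios, and the called genes of 19 gene lists and 4 marker lists, or the gene with the smallest p where none was called. A gene stands in its list by its brightest probe. Members and lists were chosen with earlier results of these data known. The fit was tested on simulated data. Normexp (offset 50) used the median spot signal. Alternatives were other normalizations, background correction, filters, variance models, thresholds, blocks and left-out pairs.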

Additional observations from a re-analysis of the deposited data

Results flagged for a closer look

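The knockdown effect differed between the lines at 280 probes, and at 21 probes it was called in both lines with opposite signs, in the test of the difference itself. Among the named probes the differences, A172 minus U87 in log2 units, were as follows, with the values without U87 replicate 3 and then with normexp in parentheses. Called in both lines with opposite signs were FILIP1L -3.00 (-2.95, -1.93), ENC1 -2.36 (-2.00, -1.60), PLAU -2.18 (-2.02, -1.68), TGM2 -2.00 (-2.07, -0.92), LAMA4 at A_33_P3308744 -1.89 (-1.60, -0.75), GBP1 -1.84 (-1.83, -0.47), MYLK at A_23_P143817 -1.79 (-1.70, -1.49), GPRC5A -1.74 (-1.67, -1.00), MYLK at A_21_P0012447 -1.61 (-1.57, -1.35), CAMK2N1 -1.57 (-1.38, -0.92), LAMB3 -1.53 (-1.54, -0.53), ADAMTSL1 -1.42 (-1.41, -0.56), SOX15 -1.42 (-1.22, -0.35), STAT3 -1.35 (-1.13, -1.07), GRK5 -1.31 (-1.19, -0.62), HEG1 -1.29 (-1.13, -1.17), S100A3 -1.27 (-1.21, -0.92), SLC20A1 -1.19 (-1.12, -1.15), S100A2 -1.15 (-1.01, -0.59), SLC39A14 -1.13 (-1.01, -0.36) and TCF7 at A_33_P3250671 1.50 (1.45, 0.79). With 1 of the 7 pairs left out at a time, 5 of these 21 were called with opposite signs in all 7 fits, 2 (STAT3 and LAMA4) in none, and ENC1 in 1. Of the others, the more negative differences were TMEM158 -2.82 (-2.45, -1.46), ABLIM3 -2.74 (-2.78, -1.42), SVIL2P -2.32 (-2.25, -0.70), ZNF365 -1.92 (-1.73, -0.61), GNB5 -1.90 (-1.53, -0.87), ABCC3 -1.81 (-1.72, -1.10), LIFR -1.59 (-1.30, -0.61), TRIM8 -1.50 (-1.37, -1.42), LAMA4 at A_33_P3308749 -1.49 (-1.37, -1.22), CD44 -1.25 (-1.20, -1.18) and SOX9 -1.24 (-1.00, -0.60). Smaller negative differences were EDA2R -1.18 (-1.28, -0.54), TNFRSF10B -1.17 (-0.96, -1.09), TNFAIP2 -1.12 (-0.91, -1.02), ITGA3 -1.11 (-1.10, -1.03), IFIT3 -1.02 (-0.91, -0.30), NPC1 -0.83 (-0.71, -0.56), BCL2L1 -0.81 (-0.84, -0.78), OSMR -0.81 (-0.78, -0.64), TGFBR2 -0.70 (-0.72, -0.46), DDB2 -0.70 (-0.63, -0.53) and KRT80 -0.63 (-0.59, -0.76). Positive differences were FGFR1 0.71 (0.74, 0.60), KRT42P 0.84 (0.91, 0.59), ID2 0.93 (1.05, 0.74), DUSP1 0.99 (1.07, 0.46), LGALS14 1.01 (0.97, 0.18), THBS1 1.11 (0.96, 1.00), ZNF10 1.12 (0.99, 0.51), CEP152 1.16 (1.32, 0.63), EDN1 1.20 (1.01, 0.67), AXIN2 1.21 (1.38, 0.67), RNF41 1.32 (1.22, 0.44), HSD17B2 1.33 (1.06, 0.84), TCF7 at A_23_P7582 1.39 (1.45, 0.99), ADORA1 1.50 (1.59, 1.26) and MIR17HG 1.54 (1.57, 0.43). At OASL -3.01 (-2.91, -0.37), RAB3D -2.63 (-2.36, -0.50) and MMP2 -1.77 (-1.48, -0.083) no A172 knockdown array was well above background, so these are fitted values and the fall in A172 is known only as at least 2.61-fold, 2.37-fold and 1.49-fold. ZNF10 was not called as different without U87 replicate 3, and TGFBR2, DUSP1, RNF41, SLC39A14, IFIT3, MIR17HG, GBP1, SOX15, LGALS14, OASL and MMP2 were not called with normexp.

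Single arrays of U87 stood far from the other 3 of their group at 26 of 152 groups of 4 arrays checked over the named probes (17.1%), where chance marks about 1 in 20, and 20 of the 26 were replicate 3. On the control array of replicate 3 the log2 signal was the lowest of its group at OASL (0.48, others 0.99 to 1.07), TMEM158 (-0.24, others 3.58 to 3.85), RAB3D (-1.36, others 0.070 to 0.17), ENC1 (-1.32, others 1.66 to 2.26), GNB5 (-3.38, others -0.15 to 0.45), STAT3 (0.019, others 1.31 to 1.55), CD44 (1.27, others 2.79 to 3.05), TNFAIP2 (1.09, others 3.24 to 3.48), NPC1 (-0.70, others 1.14 to 1.23), KRT80 (0.50, others 1.20 to 1.34), CDC25B (0.14, others up to 1.29), DUSP1 (-3.34, others 0.31 to 0.78) and MIR17HG (-0.55, others up to 1.21). On the knockdown array of replicate 3 it was the lowest at TMEM158 (1.27, others 3.65 to 3.83), TNFAIP2 (1.98, others 3.35 to 3.47), NPC1 (0.081, others 1.43 to 1.59), CDC25B (0.74, others 1.52 to 1.57), DUSP1 (-3.82, others -0.47 to -0.048) and MIR17HG (-0.54, others 1.00 to 1.09). The other cases were ADAMTSL1 on the control array of replicate 4 (0.86, others 0.27 to 0.32), ITGA3 on the knockdown array of replicate 3 (4.75, others 4.14 to 4.21), TGFBR2 on the control array of replicate 4 (1.56, others 0.93 to 0.96), TGFBR2 on the knockdown array of replicate 4 (2.44, others 1.78 to 1.86), CD68 on the knockdown array of replicate 4 (3.64, others 3.83 to 3.87), ID2 on the control array of replicate 4 (2.00, others 1.20 to 1.24) and RNF41 on the control array of replicate 2 (-1.08, others -1.37 to -1.33). The difference of CDC25B, which was not called, was -0.54, and -0.48 without U87 replicate 3.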

How the results depend on the processing

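The number of probes called as different rests strongly on the pairing of arrays by number. Without the replicate block limma called 2 probes in place of 280, and 0 in place of 21 in opposite directions, where 8 probes passed an unadjusted p below 0.05 in both lines. With the number as a random block it called 605. Normexp background correction gave 432 and 4, the deposited log2 values 184, no filter on dim probes 20 and 6, and array weights 1195, and asking for a signal well above background on all 14 arrays left 13 in opposite directions. With the common spread estimated over the probes tested in either line, an alternative chosen after seeing the data, 89 probes differed. At an FDR below 0.05 the counts were 34 and 6, and above an absolute log2 change of 1 they were 130 and 0, the latter also at an unadjusted p below 0.05. Leaving out 1 pair at a time gave 35 to 587 different probes: 94, 61 and 35 without A172 replicate 1, 2 and 3, and 93, 73, 587 and 137 without U87 replicate 1, 2, 3 and 4. The opposite calls ranged from 9 to 23, with 9 without A172 replicate 2 and 10 without A172 replicate 3. Of the 21 probes, 8 to 18 were among them, 11 without U87 replicate 3, and 4 with normexp. All other alternatives kept the counts within 1.5 times. Of the 65 named called probes, 2 were called without the block, 8 with no filter, 19 at an FDR below 0.05, 33 with the wider spread, 42 in the deposited values, 48 and 46 with quantile normalization within lines and over all arrays, 53 with normexp and 58 with the median. Leaving out 1 pair, from 18 (without A172 replicate 3) to 64 (without U87 replicate 3) were called, and no sign changed. Signs changed at probes that were not called. At the LINC00152 probe (0.12) the difference was -0.71 with normexp, -0.088 with quantile normalization over all arrays, -0.11 in the deposited values and, leaving out pairs, from -0.026 without U87 replicate 1 to 0.24 without A172 replicate 2. With normexp it was -0.32 at ENST00000409139, and -0.49 at both A_21_P0012079 and A_21_P0012078. At A_33_P3269678 (0.00) it was -0.10 with normexp, -0.026 and -0.038 with quantile normalization within lines and over all arrays, -0.040 with the median, -0.043 in the deposited values, -0.12 with array weights, -0.08 without A172 replicate 2, and from -0.13 without U87 replicate 3 to 0.090 without U87 replicate 2. At ADAMTSL1 probe A_23_P342138 it was -0.033 with array weights, and from -0.021 without A172 replicate 1 to 0.39 without A172 replicate 2. The cause was not tested. Fewer U87 than A172 spots rose well above background, and 28340 probes passed the filter in A172 against 21922 in U87, so fewer of the genes dim in U87 could be compared.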

Other observations

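Some probes were well above background in 1 line only and could not be compared. Among 7174 probes that passed the background filter in A172 alone, 162 were called in A172 (73 higher and 89 lower) while no U87 array was well above background, and among 756 that passed in U87 alone, 39 were called (22 higher and 17 lower) with no A172 array well above background. The examples here were chosen after their values were seen, their adjusted p comes from limma over the probes tested in that line, and a difference between the lines was not tested at these probes. Other probes of some of these genes were tested in both lines, and none of those given here was called as different.

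In A172 the basal keratin KRT14 rose by 3.35 on the log2 scale (SE 0.41, adjusted p 0.0134), the related type I keratin KRT17 by 2.37 and the pseudogene KRT16P2 by 3.69. A KRT14 probe tested in both lines changed by 0.71 in A172 and 0.12 in U87, neither called. The acute phase gene SAA1 rose by 2.24, the growth factor binding protein IGFBP5 by 2.02 (adjusted p 0.00297), the bone morphogenetic protein BMP4 by 1.47 (adjusted p 0.0683), and the somatostatin receptor SSTR5 by 1.78 (adjusted p 0.0194). Both probes of the related receptor SSTR2 rose, by 1.56 (adjusted p 0.0917) and 1.73 (adjusted p 0.155). Among those that fell, the succinate receptor SUCNR1 changed by -2.22, the autophagy gene MAP1LC3C by -2.25, the laminin-binding integrin ITGA6 by -1.96 with 1 of 3 knockdown arrays well above background, and the TGF-beta target PMEPA1 by -1.70 with 2 of 3. Where they were tested in both lines, ITGA6 changed by -1.12 in A172 (called) and -0.55 in U87 (not called), and PMEPA1 by -0.35 and -0.18, neither called. CLN8, a gene of lipid metabolism in the endoplasmic reticulum, was well above background on 3 control arrays and no knockdown array and was at least 1.82-fold lower.

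In U87 the glycerol-3-phosphate acyltransferase GPAT3 changed by -2.13 (SE 0.21, adjusted p 0.0044) and the transcription cofactor EYA1 by -1.67, with 3 of 4 control and 1 of 4 knockdown arrays well above background, while an EYA1 probe tested in both lines changed by -0.26 in U87 and was not called. The adenosine receptor ADORA2A rose by 1.02 in U87 (adjusted p 0.0063) and its A172 ratios, from spots not well above background, were 1.05, 1.13 and 1.23. Another ADORA2A probe was called higher in both lines, by 0.51 in A172 and 0.91 in U87. The hyaluronan synthase HAS1 rose by 0.81 (adjusted p 0.0279), against 0.14 at a HAS1 probe tested in both lines, which was not called.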
